A study of Homo sapiens with 6 samples.

Results

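The microRNA (miRNA) hairpins hsa-mir-21, hsa-mir-31 and hsa-mir-139, which have a known part in colorectal carcinoma, were followed in cells derived from that tumour type. They were chosen by name, for that known part, with earlier results of these data known. They are 3 of the 147 hairpins (127 miRNAs) in the deposited table. The cells were HCT116, an established human colorectal carcinoma line, in which the DICER gene had been knocked out. All 6 samples share this background and differ in the plasmid transfected into them. In 3 samples it carried full-length DICER (DICER-WT rescue), and in 3 it carried DICER without its helicase domain (DICER-delHelicase rescue). RNA was collected 48 h after transfection, and small RNAs were sequenced. DICER in these cells therefore came from a transient plasmid, and the sources used here do not give its amount.

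DICER cuts the apical loop off a precursor miRNA and leaves a duplex of a 5′ arm (5p) and a 3′ arm (3p) strand. Its cut sets the 3′ end of the 5p miRNA and the 5′ end of the 3p miRNA. A miRNA finds its targets through its seed, the bases 2 to 8 counted from its 5′ end, so a shift of the cut on the 3p strand gives a miRNA with another seed. The helicase domain is the N-terminal part of DICER, which lies near the loop end of the precursor and binds partner proteins such as TRBP and PACT. In colorectal tumours miR-21 and miR-31 are widely reported as raised and miR-139 as lowered. miR-21 represses the tumour suppressor PDCD4, miR-31 represses the RAS regulator RASA1, and miR-139-5p represses the growth factor receptor IGF1R. These functions are known mainly for the 5p strands, whereas the table lists each of the 3 hairpins under its 3p strand.

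The deposited hairpins are shown first because all later features are read from them. Capitals mark the mature strands that RefSeq annotates, and positions are counted from 1 at the 5′ end of the deposited sequence. Each deposited sequence extends the RefSeq hairpin by 10 nt at either end.
hsa-mir-21: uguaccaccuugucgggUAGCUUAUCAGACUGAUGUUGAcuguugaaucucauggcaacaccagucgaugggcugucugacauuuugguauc
hsa-mir-31: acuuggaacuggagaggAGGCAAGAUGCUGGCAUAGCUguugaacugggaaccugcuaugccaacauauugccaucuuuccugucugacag
hsa-mir-139: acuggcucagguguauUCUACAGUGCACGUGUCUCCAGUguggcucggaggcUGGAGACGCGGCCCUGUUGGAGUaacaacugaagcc

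The mature strands follow with the seed in capitals, since the seed is the part that a shifted 5′ end would replace. They were taken from RefSeq (GRCh38.p14), which was matched here for the 5p strand of all 3 hairpins and for the 3p strand of mir-139. The strands miR-21-3p and miR-31-3p are named only.
miR-21-5p: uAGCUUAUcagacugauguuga
miR-31-5p: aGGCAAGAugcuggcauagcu
miR-139-5p: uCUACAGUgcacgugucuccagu
miR-139-3p: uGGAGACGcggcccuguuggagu

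No 2 of these 4 seeds were the same. Among the 2370 distinct mature miRNA names of the RefSeq table, 1 other miRNA, miR-590-5p, carried the seed of miR-21-5p. No other name carried the seed of miR-31-5p, miR-139-5p or miR-139-3p. Moving the 5′ end of miR-139-3p outward by 1 nt would give the seed UGGAGAC, and moving it inward by 1 nt would give GAGACGC. Neither was the seed of another miRNA in that table. The deposited values do not say in which direction the ends of miR-139-3p varied.

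The 3 hairpins come from separate chromosomes and lie within longer genes on their own strand. The RefSeq hairpin of mir-21 spans chr17:59841266-59841337 (GRCh38.p14, plus strand). In the GENCODE 29 annotation of GRCh38 it lies in an exon of a retained-intron transcript of VMP1, an autophagy gene, and overlaps no coding exon. The hairpin of mir-31 spans chr9:21512115-21512185 (minus strand) within an intron of MIR31HG, a long non-coding RNA gene. The hairpin of mir-139 spans chr11:72615063-72615130 (minus strand). It lies in introns of PDE2A, the gene of a cyclic nucleotide phosphodiesterase, and in none of its exons. The mature strands of mir-139 are annotated at 72615102-72615124 (5p) and 72615066-72615088 (3p).

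The value compared is the authors' variation score, deposited as 1 number per hairpin and DICER construct. A higher score is read here as more variable product ends, since the file header calls it a global variation and a neighbouring column gives the main 5′ end. That reading was not tested. The sources used here give neither its formula nor its unit, and they do not say how the 3 samples per construct were combined. No value per sample and no depth was available, so no spread, test or interval can be attached to a difference between the constructs, and the differences below have no replicate check.

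All 3 hairpins scored higher with DICER-delHelicase, by very different amounts. For hsa-mir-21 the DICER-WT score was 0.187 and the DICER-delHelicase score 0.324, a change of 0.137 (1.73 times). For hsa-mir-31 the scores were 0.337 and 0.790 in this order, a change of 0.453 (2.34 times). For hsa-mir-139 they were 0.196 and 0.940, a change of 0.743 (4.78 times). The change of mir-139 was thus 5.43 times that of mir-21 and 1.64 times that of mir-31. As background, 72.1% of the 147 hairpins scored higher with DICER-delHelicase, so a higher score in 3 of 3 is close to what the table as a whole shows. A change of at least 0.1 upward was seen in all 3 hairpins against 37.4% of the table, and one of at least 0.2 in mir-31 and mir-139 against 20.4%. The median change over all hairpins was 0.0261, with quartiles of -0.000436 and 0.157, so mir-21 lay between the median and the upper quartile and the other 2 hairpins above that quartile.

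**Figure D1:**
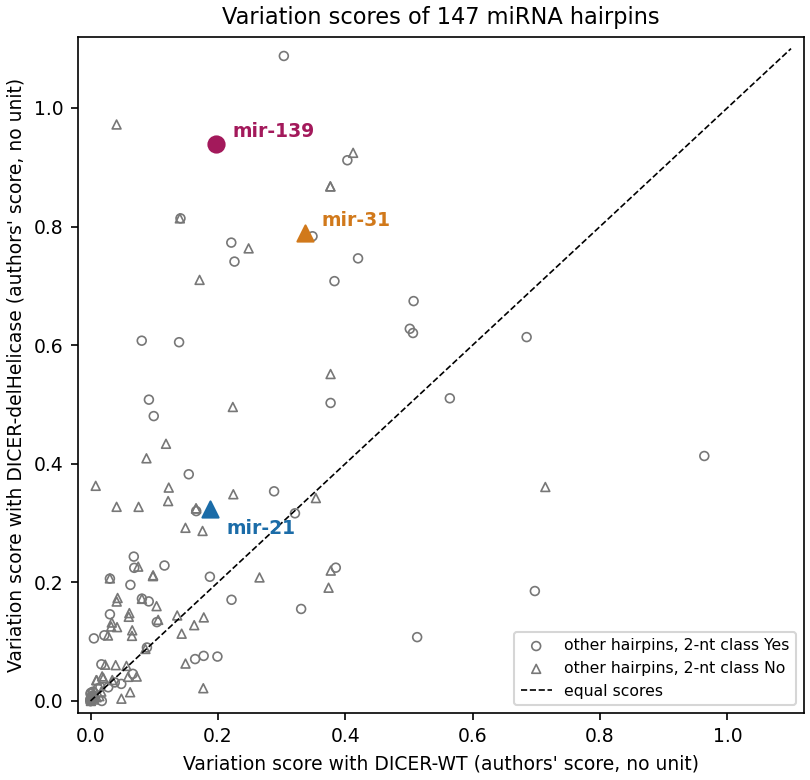
Each point is 1 of 147 hairpins, with the authors' variation score for DICER-WT on the x axis and for DICER-delHelicase on the y axis (no unit, 1 value per hairpin and construct, no error available). Circles are hairpins of 2-nt class Yes and triangles of class No. The coloured mir-21, mir-31 and mir-139 lie above the dashed line of equal scores, mir-139 at 0.940 on the y axis almost straight above mir-21 at 0.324.

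mir-21 and mir-139 had similar scores with the full-length enzyme and very different ones with the mutant. With DICER-WT the 2 hairpins stood side by side, at ranks 37 and 36 of 147 from the top, with scores 0.00899 apart. With DICER-delHelicase they stood at ranks 45 and 3, with scores 0.616 apart. Only mir-339 (1.09) and let-7e (0.972) scored above mir-139 with that construct. mir-31 moved from rank 23 to rank 10. In change, mir-139 had rank 3, mir-31 rank 16 and mir-21 rank 42.

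A comparison with the DICER-WT scores of other hairpins shows how far these values lie from the usual range of the full-length enzyme. A single hairpin, mir-10399 (0.964), scored higher with DICER-WT than mir-139 and mir-31 did with DICER-delHelicase. The DICER-delHelicase score of mir-21, in contrast, was exceeded by the DICER-WT scores of 24 hairpins.

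**Figure D2:**
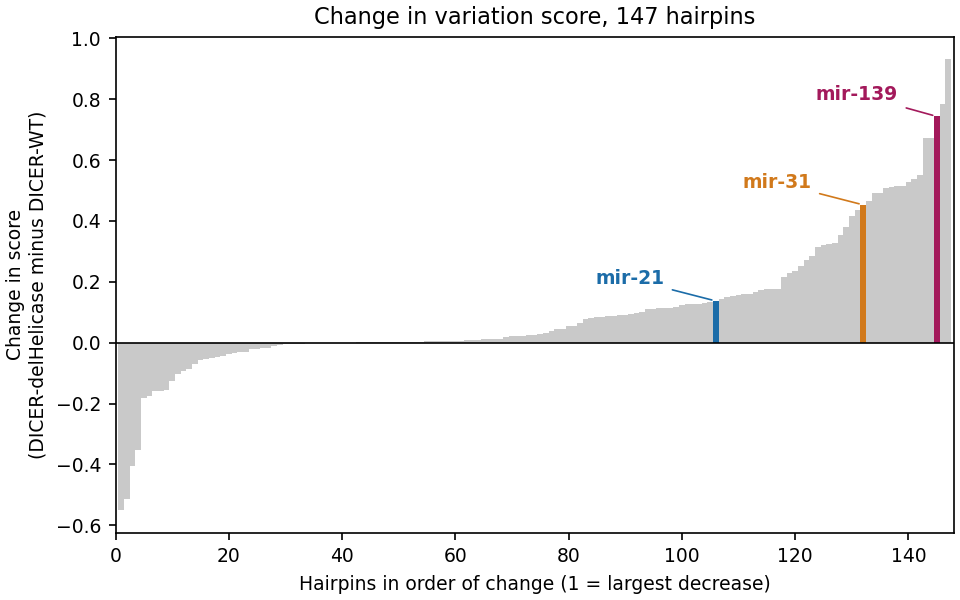
Bars give the change in score (DICER-delHelicase minus DICER-WT, no unit) of 147 hairpins, ordered from the largest decrease to the largest increase. mir-21 (0.137) sits on the long shoulder of moderate increases, mir-31 (0.453) on the steep part, and mir-139 (0.743) near the right end, with 2 larger increases beyond it.

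On a ratio scale the order of the 3 hairpins was kept, but their place in the table was lower. The log2 ratios of DICER-delHelicase to DICER-WT were 0.79 for mir-21, 1.23 for mir-31 and 2.26 for mir-139, and the median over the 139 hairpins without a score of 0 was 0.97. The ratio of mir-21 was therefore below the median ratio of 1.96, although its difference was above the median difference. Hairpins with scores near 0 can reach high ratios with small differences.

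The hairpins next to each of the 3 in the order of DICER-WT scores also spread widely with the mutant. Directly above mir-139 was mir-16-2, with 0.199 and 0.0749, and above that mir-30c-1, with 0.221 and 0.773 (DICER-WT first). Directly below mir-21 followed mir-372, with 0.187 and 0.209, and mir-193b, with 0.178 and 0.141. Around mir-31 stood mir-625 (0.354 and 0.342) and mir-1307 (0.349 and 0.784) above, and mir-151a (0.331 and 0.155) and mir-10a (0.321 and 0.316) below. Of these 8 hairpins, mir-1307 and mir-30c-1 scored close to mir-31 with DICER-delHelicase, and the other 6 scored at most 0.342.

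In the plane of both scores, mir-21 and mir-31 had closer neighbours than mir-139. The miRNA nearest to mir-21 was the neural miR-9-3p, here from mir-9-2 (0.166 and 0.325, a distance of 0.0218), followed by mir-1301 (0.176 and 0.287) and mir-4664 (0.224 and 0.349). The nearest to mir-31 was mir-1307 at a distance of 0.0133, followed by mir-199a-1 (0.377 and 0.868) and the endothelial mir-126 (0.248 and 0.763). For mir-139 the nearest was mir-3158-1 (0.141 and 0.814) at a distance of 0.138, followed by let-7e (0.0409 and 0.972) and mir-30c-1. These distances are over 2 values per hairpin and say nothing of shared function.

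The table gives 2 further entries per hairpin, both tied by the header to DICER-WT. The offset of the main 5′ end, read here in nucleotides from a reference position, was 0 for mir-21, mir-31 and mir-139, as in 140 of the 147 hairpins. The main DICER-WT product of each of the 3 thus carried no shift by that column. The hairpins at ranks 1 and 2 in DICER-WT score, mir-10399 and mir-145, had offsets of -4 and 2. Whether a distance from the reference position enters the score is not stated. The class headed 2-nt was No for mir-21 and mir-31 and Yes for mir-139. It was Yes for 73 hairpins and No for 74, and the header does not say what it stands for. Among the class Yes hairpins mir-139 had the second largest change. Among the class No hairpins mir-31 was at rank 8 and mir-21 at rank 23. The median change was 0.0115 in class Yes and 0.0549 in class No, so mir-139 came from the class with the smaller median. No test of the classes was made.

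An RNase III enzyme such as DICER leaves a 3′ overhang of 2 nt, which can be looked for in the predicted fold of a hairpin whose strands are both annotated. Minimum free energy structures were predicted for all deposited sequences at 37 °C. In that of mir-139 the first base of miR-139-3p, position 53, paired with position 37, and miR-139-5p ended at position 39, an overhang of 2 nt. Of the 99 hairpins for which this distance could be computed, 57 had an overhang of 2 nt. The deposited class was Yes for 29 of these 57 and No for 28. An annotated overhang of 2 nt thus went with either class, and for mir-21 and mir-31 no overhang was computed.

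The 3 hairpins differed in how the stem is closed at the annotated 3′ end of the 5p miRNA. This annotated end need not be the exact DICER cut in these cells, which was not mapped here. In mir-139 the last 12 bases of miR-139-5p formed an unbroken run of stacked pairs that reached its last base, position 39. Where the last base of a 5p miRNA was unpaired, the run was counted up to the base before it. By this count, of the 104 hairpins whose 5p strand was placed, 11 had a longer run and 1 had the same length. Not all of the 11 runs reached the last base, as in let-7e, where it was unpaired. Past the end of the miRNA, position 40 was unpaired opposite position 50, a single pair joined positions 41 and 49, and a loop of 7 nt followed. In mir-31 a run of 9 pairs ended 1 base before the end of miR-31-5p. Its last base, position 38, was unpaired, then 3 pairs (positions 39 to 41 with 50 to 52) closed a loop of 8 nt. In mir-21 a run of 5 pairs ended 1 base before the end of miR-21-5p, and its last base, position 39, was unpaired as well.

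Beyond that base mir-21 kept a longer stem than the other 2 hairpins. Positions 40 to 43 paired with 52 to 55, position 44 was unpaired, positions 45 and 46 paired with 51 and 50, and the loop held 3 nt. The loop of mir-21 started 7 nt past the end of its 5p miRNA, against 3 nt in mir-31 and 2 nt in mir-139. In 6 of the 104 hairpins this distance was longer than in mir-21. The upper stem of mir-21 was also the least certain part of the predictions. The probability of being unpaired was 53.6% at position 43 and 51.1% at position 44, whereas every base in the plotted window of mir-31 and mir-139 was clearly paired or clearly unpaired.

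**Figure D3:**
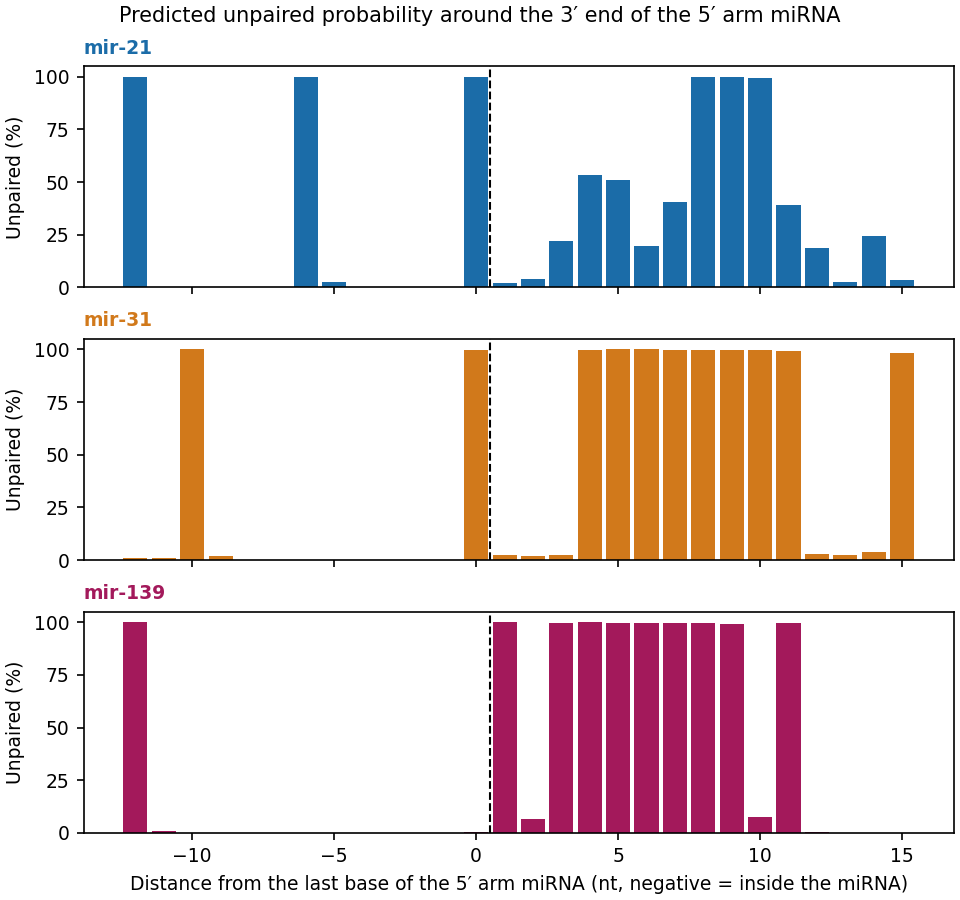
Bars give the predicted probability that a base is unpaired (%), in 1 panel per hairpin. The x axis is the distance from the last base of the annotated 5p miRNA (0, left of the dashed line). The last base is unpaired in mir-21 and mir-31 and paired in mir-139, and mir-21 shows partly paired bases at distances 4 to 7 where mir-31 and mir-139 show a clear loop.

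Of the 11 sequence and fold features computed, loop size had the largest rank correlation with the change over all hairpins, and the relation was loose. Spearman's rho between loop size and change was -0.33 (n = 147 hairpins, which share libraries and are not replicates), against 0.05 with the DICER-WT score. Over the 111 hairpins of miRNAs with a single hairpin it was -0.26 with the change. mir-21 had a loop of 3 nt, a size shared with 8 other hairpins and smaller than that of the remaining 138. The median change of these 9 hairpins was 0.137, which is the value of mir-21 itself. Of the 10 hairpins with a loop of 7 nt, mir-139 had the largest change, against a median of 0.0828. Of the 19 with a loop of 8 nt, mir-31 had the largest, against a median of 0.00524. These 19 hairpins came from 15 miRNAs, and that median is a value shared by several copies of 1 miRNA, which lowers it. The changes of mir-139 and mir-31 were thus the largest of their own loop size classes, and that of mir-21 was in the middle.

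The run of stacked pairs up to the last base of the 5p miRNA, or up to the base before an unpaired last base, was also set beside the scores. Its rho over 104 hairpins was 0.27 with the DICER-delHelicase score, 0.11 with the DICER-WT score and 0.19 with the change, all weak. Over the 81 of these hairpins whose miRNA has a single hairpin, the values were 0.24, 0.098 and 0.14 in this order. The 13 hairpins with a run of 12 or more, mir-139 among them, came from 11 miRNAs, with copies counted separately. Their changes had a median of 0.228 and ranged from -0.353 to 0.931, against a median of 0.0595 over the 104. The value of 0.931 is that of let-7e, whose last 5p base was unpaired. This limit of 12 was set from mir-139 after its value was seen, so the count is a description. The deposited lengths of 92, 91 and 88 nt (mir-21, mir-31, mir-139) were at or below the lower quartile of 92. The GC contents were 46.7%, 49.5% and 58.0% (median 51.7%). The minimum free energies were -0.463, -0.445 and -0.525 kcal/mol per nt (median -0.432).

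The length of the annotated 5p miRNA reflects roughly the distance from the DROSHA end to the DICER cut. It was 22 nt for miR-21-5p, 21 nt for miR-31-5p and 23 nt for miR-139-5p. Over the 104 hairpins 15 had 21 nt, 52 had 22 nt and 31 had 23 nt. The median changes of these groups were 0.0132, 0.0824 and 0.0653. rho between this length and the change was -0.03. The stretch between the annotated strands of mir-139 was 13 nt long, shorter than in 83 of the 100 hairpins with both strands placed and longer than in 6.

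Other miRNAs with a reported part in colorectal carcinoma were read in 2 lists, chosen with earlier results of these data known. The hairpins found are listed under their 3p strands, which need not be the strands of the tumour reports. Of 23 miRNAs widely reported as raised in tumours, 14 were found, as 17 hairpins. Of these 13 scored higher with DICER-delHelicase (76.5%, against 72.1% of the table) and 4 lower, with a median change of 0.0653. Without mir-21 and mir-31, 11 were higher and 4 lower, and the median change was 0.0288, near the 0.0261 of the whole table. mir-31 had the largest change of the list, followed by mir-203a, an epithelial differentiation miRNA (0.377 and 0.551), and mir-21. A change of at least 0.1 upward was seen in 4 of the 17, a smaller share than the 37.4% of the table, the other being mir-181a-2 (0.00529 and 0.106). The largest decreases were those of mir-106b (0.177 and 0.0215), mir-93 (0.564 and 0.510) and mir-19b-2 (0.00506 and 0.00245).

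Of 20 miRNAs widely reported as lowered in tumours, 8 were found, as 11 hairpins. Here 7 scored higher with DICER-delHelicase (63.6%, against 72.1% of the table) and 4 lower. Their median change was 0.154, or 0.106 with 1 value per miRNA, beside 0.0261 over all hairpins. Without mir-139 the median was 0.104 over 10 hairpins of 7 miRNAs, with the copies of mir-9 and mir-101 counted separately. A change of at least 0.1 upward was seen in 6 of the 11 hairpins, against 37.4% of the table. One of at least 0.1 downward was seen in 3 of the 11, against 11 of all 147. With 1 value per miRNA these counts were 4 and 2 of 8. mir-139 had the largest change of this list, followed by mir-126 (0.248 and 0.763) and mir-378a (0.119 and 0.434). The largest decreases were those of mir-145, a smooth muscle miRNA (0.714 and 0.361), followed by mir-101-1 (0.385 and 0.225) and its copy mir-101-2 (0.377 and 0.220). The copies of mir-9 and of mir-101 can share reads. The miRNAs reported as lowered thus held both mir-139 and hairpins with lower DICER-delHelicase scores, and no difference between the lists was tested.

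**Figure D4:**
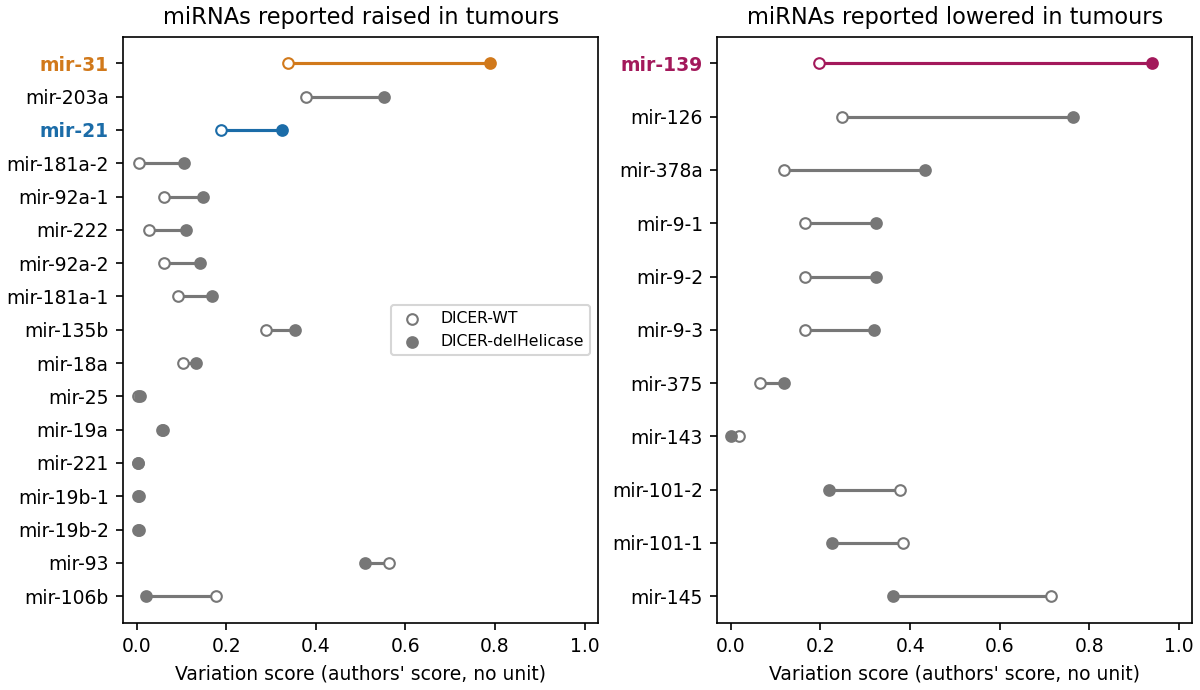
Open points are DICER-WT and filled points DICER-delHelicase variation scores (x axis, no unit, 1 value each) of the hairpins found from each colorectal carcinoma list, ordered by change. mir-31 and mir-139 head their lists, mir-21 follows mir-203a among the miRNAs reported as raised, and mir-106b and mir-145 have the largest decreases.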

How the data were processed

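Small RNA libraries of 6 samples, 3 per construct, had been cut from a urea gel and built with an Illumina TruSeq small RNA kit, per the labels' protocols. The submitters' processing notes name cutadapt, Bowtie2, bedtools and GRCh38, with no settings. The authors deposited a variation score per hairpin and construct (294 lines), and per the file headers the main 5′ end with DICER-WT and a 2-nt class. Neither the formula of the score nor the depth behind it is stated there.

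Differences, ratios and ranks over the 147 hairpins were computed with pandas 2.3.3. RefSeq strands were placed as exact matches within deposited sequences: the 5p strand in 104 hairpins, the 3p strand in 120 and both in 100. Folds were predicted with ViennaRNA 2.7.2 at 37 °C. The code for loop size, overhang and counts of raised hairpins was tested on made-up or shuffled input with known answers. Other steps had no such test. Members and lists were chosen with earlier results of these data known. Besides mir-21, mir-31 and mir-139, named hairpins were the 3 nearest miRNAs in both scores, the 2 next above and below in DICER-WT order, and the 3 largest changes each way per list. Hairpins ranked above mir-139 and mir-31 and the size limits of fold features were chosen after values were seen. Tests planned for values per sample were not run. Alternatives were other sets of hairpins, other scales and the centroid fold.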

Additional observations from a re-analysis of the deposited data

How the results depend on the processing

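The percentile of each change (the share of the other hairpins with a smaller change, 146 in the main setting) depended on the scale. It was 71.9 for mir-21, 89.7 for mir-31 and 98.6 for mir-139 as a difference of scores. On log2 ratios it was 43.5, 61.6 and 88.4, in the same order, among the 139 hairpins without a score of 0. On differences of ranks it was 30.8, 74.0 and 91.8. mir-21 thus went below the middle of the table on both of these scales, and mir-139 was the highest of the 3 on each. The cause was not tested. With 1 value per miRNA, with offset 0 only or within the 2-nt class, the percentiles of change, and those of the scores where run, stayed within the binomial interval of the main value. So did the share of hairpins with a higher DICER-delHelicase score. These sets were drawn from the same hairpins as the main values, so staying within that interval is no independent check. Loop sizes were the same in the centroid fold, and for mir-139 in the precursor cut at its mature ends, which could not be made for the other 2 hairpins. The median change of hairpins with a paired last 5p base minus that with an unpaired one, looked at after the data were seen, was 0.00448. It turned to -0.0477 over miRNAs with a single hairpin and to -0.0354 with the centroid fold, and was 0.0414 without mir-21, mir-31 and mir-139. No paired analysis was possible because each construct has a single deposited value per hairpin, with no replicate, and leaving out replicates was not run for the same reason. The unknown depth limits the reading of every change, the large ones of mir-31 and mir-139 included.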

Other observations

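The unpaired last base of the 5p miRNA, seen in mir-21 and mir-31, was found in 14 of the 104 hairpins whose 5p strand was placed. It was looked at after the folds were seen. The DICER-delHelicase score was higher in 10 of these 14 and in 64 of the 90 with a paired last base, and the median changes were 0.0550 and 0.0595. The 2-nt class was Yes in 3 of the 14 and in 49 of the 90. No test of either difference was made.

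Some copies of 1 miRNA differed in 2-nt class while their scores were nearly the same. Among the colorectal carcinoma lists, mir-9-3 was in class Yes with scores of 0.166 and 0.320, and mir-9-1 and mir-9-2 were in class No with 0.166 and 0.325 each (DICER-WT first). In the same way mir-101-1 was in class Yes and mir-101-2 in class No. Such copies are listed under the same mature miRNA and can share reads. Their near-equal scores therefore do not show how the class relates to the score.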
